A study of Mus musculus with 12 samples.

Results

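The cytosolic ribosomal protein genes of the mouse were followed in 2 experiments that compared small extracellular vesicles from mesenchymal stem cells (labelled MSC.sEV) with phosphate-buffered saline (PBS). Members were the protein-coding genes named Rpl or Rps with a number, together with Rplp0, Rplp1, Rplp2 and Rpsa. S6 kinases and names ending in -ps were left out. By this rule 86 of 32285 genes in the retina table and 87 of 55401 genes in the pericyte table were members, and the additional one was Rps23rg1. Of the members, 77 were the core genes of the ribosome, 31 of the small and 46 of the large subunit. The remaining members were paralogs or genes that only carry such a name.

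The data were counts per gene from bulk RNA sequencing of 12 libraries in 4 groups of 3. All 12 are labelled wild type, with no age, sex or strain stated. Both retina groups were taken on day 1 after optic nerve crush (ONC), an injury that cuts the axons of retinal ganglion cells, and are labelled ONC+PBS and ONC+i.o.MSC.sEV, where i.o. is not spelled out. Both pericyte groups are cells labelled brain microvascular pericytes, P4, with PBS or with MSC.sEV for 12 hours. Whether replicate libraries stem from different animals or cultures is not stated, so p-values measure the spread between these libraries, which may be technical. Retina columns were assigned to the PBS and vesicle groups by inference from their short names, and the direction of every retina difference rests on that reading. Had those PBS columns come from retina without crush, each retina difference would hold the injury as well as the vesicles. Retina libraries held 15580024 to 16842926 counts, and pericyte libraries held 33001248 to 37954077. Levels are CPM, the counts scaled to a common library total by TMM, and each log2 fold change is vesicles minus PBS, given with its SE. A gene was called higher or lower at an adjusted p under 0.05 in edgeR's quasi-likelihood test over all tested genes.

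Markers of rods and cones made up 9.62% to 9.69% of counts in the retina PBS libraries and 5.91% to 7.56% in the vesicle libraries, and 6 of 7 were called lower. All 7 leukocyte markers were called higher in the retina, from a sum of 54.4 to 91.1 CPM with PBS to 856 to 1473 CPM with vesicles, which was at most 0.138% of counts. Of 20 lens genes none was called, but their share of counts ran from 0.0653% to 0.707% with PBS and from 0.0121% to 7.21% with vesicles. Retina sums of Mueller glia markers were 1185 to 1762 CPM with PBS and 811 to 1212 with vesicles, 1 called higher and 1 lower. Fibroblast markers were at 21 to 31.8 and 23.8 to 109 CPM, with 1 called higher. Mural cell markers were at 57.8 to 66.4 and 59.4 to 189 CPM, with 1 called higher. Endothelial markers were at 37.5 to 50.5 and 31.5 to 33.9 CPM, with 1 called lower. No ganglion cell or oligodendrocyte lineage marker was called in the retina. Of 9 pericyte and mural cell markers in the pericyte table, Pdgfrb, Cspg4, Acta2, Notch3 and Anpep were each at 130 counts or more in all 6 libraries. Cspg4 (0.56) and Pdgfrb (0.25) were called higher with vesicles, Anpep (-0.53) and Notch3 (-0.43) lower, and Acta2 (0.04) was not called. The 9 markers summed to 660 to 703 CPM with PBS and 688 to 705 CPM with vesicles. The vascular pericyte markers Kcnj8 (0 to 8 counts), Abcc9 (0 to 5 counts) and Des (0 to 1 counts) did not pass the count filter there, and Rgs5 had 3 to 50 counts. Markers of other cell types were also counted in the pericyte libraries. Mueller glia markers had the largest sum, 1667 to 1738 CPM with PBS and 1836 to 1872 CPM with vesicles, with 1 of 5 called higher. Retinal ganglion cell markers summed to 97.7 to 102 CPM with PBS and 109 to 120 CPM with vesicles, with 1 of 4 tested called higher. Fibroblast markers summed to 439 to 481 CPM with PBS and 418 to 442 CPM with vesicles, with 1 of 5 called lower. Oligodendrocyte lineage markers summed to 279 to 290 CPM with PBS and 198 to 238 CPM with vesicles, with 2 of 4 tested called lower. Leukocyte markers summed to 80.3 to 85 CPM with PBS and 87.2 to 131 CPM with vesicles, with 1 of 5 tested called higher and S100a9 at 0. Endothelial markers summed to 12.6 to 14.7 CPM with PBS and 9.21 to 13.6 CPM with vesicles, with 1 of 4 tested called lower and Cldn5 at 0. The part of these cell markers in the ribosomal protein results was not tested. In bulk samples, fewer cells of a type and less RNA per cell cannot be told apart.

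Ribosomal proteins are the protein part of the 2 ribosomal subunits. The small subunit reads the mRNA and the large subunit joins amino acids, and a few proteins also act outside the ribosome. Most of their mRNAs start with a C followed by a run of pyrimidines, the terminal oligopyrimidine tract, through which mTOR signalling and the RNA-binding protein Larp1 control how strongly these mRNAs are translated. Messenger RNA counts do not measure that translation. Each core protein is needed in 1 copy per ribosome, apart from the stalk proteins.

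Because this start is known from many ribosomal protein mRNAs, the bases around the annotated starts are shown first for a few members that the results turn on, with and without such a run. RefSeq promoter entries (GRCm38.p6) were matched by symbol for 67 of the 87 members. A C followed by at least 7 C or T, starting within 25 bases on either side of the annotated start, was found on the gene's strand in 36 of them (53.7%), against 18.5% of 27025 genes in the same table. The letters CTTCCG, searched on both strands of the window from 250 bases before to 50 bases after the start, were found in 44 (65.7%), against 18.8% of all genes. The tract can overlap CTTCCG. Capitals below mark the pyrimidine run in 30 bases, read 5′ to 3′. The first 6 genes were called higher in the vesicle retinas and Rpl28 lower, and the last 2, Rpl10 and Rpl36al, were called higher and have no run.
Rps27l (chr9:66946056-66946085, plus strand): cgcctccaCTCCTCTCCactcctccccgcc
Rps26 (chr10:128626481-128626510, minus strand): cgccggatCCTCTTTCgagtcttggctcca
Rps12 (chr10:23787180-23787209, minus strand): accgccggCCTTTTCCCCTgccgccgccga
Rps15a (chr7:118116141-118116170, minus strand): ccggcccaCTCTCTTTCTgccatcttccct
Rps6 (chr4:86857347-86857376, minus strand): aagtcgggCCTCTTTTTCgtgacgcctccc
Rpl35a (chr16:33056469-33056498, plus strand): ggggcttgCCTTCCTCTTTCCgccatcttg
Rpl28 (chr7:4792955-4792984, plus strand): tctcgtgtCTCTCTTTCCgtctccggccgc
Rpl10 (chrX:74270801-74270830, plus strand): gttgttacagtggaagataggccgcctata
Rpl36al (chr12:69184053-69184082, minus strand): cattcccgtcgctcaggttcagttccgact
A run was found in 8 of 19 matched members called higher in the retina, in 1 of 2 called lower and in 26 of 42 not called, so members with and without a run stood in every class. The second annotated start of Rps27l and a further annotated start of Rpl35a had no run in their windows. The printed runs of Rps27l and Rps15a lay wholly before the annotated start. A match describes letters near an annotated start, and the start of transcription was not measured here.

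In the injured retina, ribosomal protein mRNAs were on balance slightly higher with vesicles than with PBS, and 3 members were called lower. Of 83 members tested, 21 were called higher, 3 lower and 59 were not called. Among all 15440 genes tested, 10.7% were called higher and 5.19% lower, 15.9% in all. At an unadjusted p under 0.05 there were 46 members, against 30.5% of all genes. The median log2 fold change of the tested members was 0.26, a 1.20-fold difference, against a median of -0.02 over all tested genes, and 75 of 83 members were above 0 (48.3% of all genes). In 54 members each vesicle library lay above each PBS library (19.5% of all genes), and in 4 members each lay below (16.2%). Member changes ran from -0.99 to 1.01. The 3 members not tested there were Rpl3l, Rpl10l and Rpl39l, with at most 11 counts in any library.

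In the small subunit 10 of 31 core genes were called higher and 1 lower, with a median of 0.26, and in the large subunit 9 of 46 were called higher and 2 lower, with a median of 0.25. As a share of each library's counts, the members took 4.65%, 4.89% and 5.02% with PBS and 5.81%, 5.56% and 5.72% with vesicles. The retina groups therefore did not overlap in this share, at 4.86% ± 0.189 and 5.7% ± 0.125 (SD, n = 3 each). In pericytes the share was 2.97%, 3.07% and 2.99% with PBS and 3.36%, 2.91% and 2.85% with vesicles, and these groups overlapped. Vesicle library 1 was the highest of the 6 pericyte libraries. The 2 tables list different gene classes, so the shares were not compared between them.

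**Figure D1:**
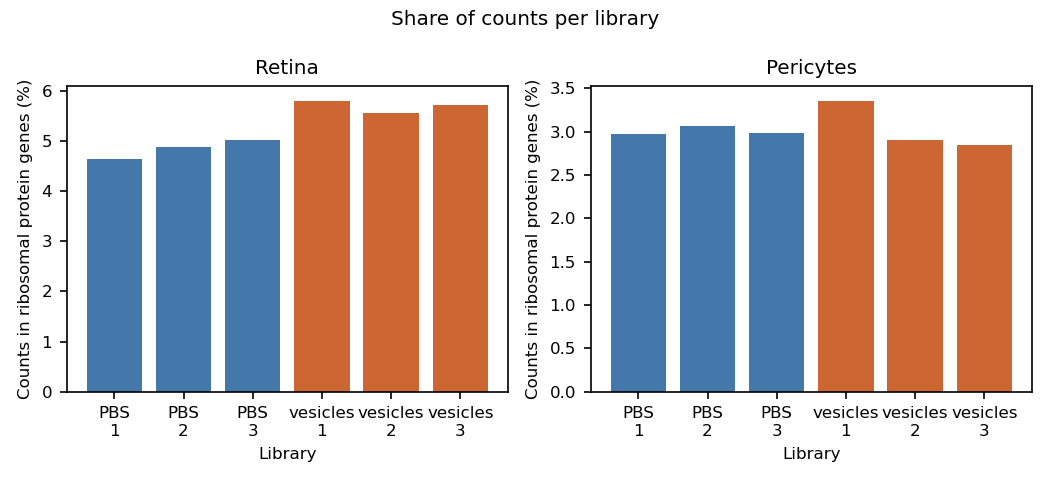
Share of each library's counts in ribosomal protein genes (percent, y axis) for the 6 retina libraries (left) and the 6 pericyte libraries (right), PBS in blue and vesicles in orange. The 3 retina vesicle libraries, at 5.56% to 5.81%, stand above the 3 PBS libraries, at 4.65% to 5.02%, while in pericytes only vesicle library 1, at 3.36%, stands above the PBS libraries.

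The count of retina calls moved with single libraries. Without PBS library 2 or vesicle library 1 it was 8 members higher, and without vesicle library 2 it was 10, where 6.65% to 6.92% of all genes were called higher. DESeq2 called 36 members higher and 4 lower, where it called 11.8% and 5.78% of all genes. The median of the members stayed between 0.23 and 0.29 when any 1 library was left out. Of the 24 called members, 6 higher ones (Rps27l, Rpl36al, Rps26, Rps12, Rps27a and Rpl10) and 1 lower one (Rpl23a) were called in all 6 fits that leave out a library, and the other 15 higher and 2 lower ones in 1 to 5 of those 6 fits.

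Among the small subunit genes, Rps26, whose protein lies beside the path by which mRNA leaves the ribosome, had 379, 472 and 536 CPM with PBS and 793, 957 and 880 CPM with vesicles. All 3 vesicle libraries were well above all 3 PBS libraries, and Rps26 rose by 0.92 ± 0.14 (adjusted p = 0.0022, edgeR). Rps12, a protein of the head of the small subunit, had 632, 633 and 735 CPM with PBS and 996, 1148 and 1048 CPM with vesicles. It rose by 0.67 ± 0.11 (adjusted p = 0.0028, edgeR), again without overlap. Rps27a, which is made as a fusion of ubiquitin with a small subunit protein, had 780, 620 and 709 CPM with PBS. With vesicles it was at 1097, 1089 and 1051 CPM, a nearly level group, and it rose by 0.62 ± 0.11 (adjusted p = 0.0045, edgeR). Rps6, the substrate that gave the S6 kinases their name, had 712, 877 and 959 CPM with PBS and 1161, 1199 and 1192 CPM with vesicles. PBS library 1 was the lowest for Rps6, and the rise of 0.48 ± 0.12 (adjusted p = 0.023, edgeR) was called in 3 of the 6 fits that leave out a library. Rpsa, also known as a receptor precursor for laminin, had 1583, 1380 and 1483 CPM with PBS and 2026, 2188 and 1939 CPM with vesicles, without overlap. It rose by 0.47 ± 0.10 (adjusted p = 0.012, edgeR) and was called in 4 of those 6 fits. The other small subunit genes called higher were Rps15a, Rps23, Rps4x, Rps7 and Rps21, by 0.33 to 0.60.

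Rps15, whose protein sits in the head of the small subunit near the decoding site, was the single core gene of that subunit called lower. It had 685, 720 and 618 CPM with PBS and 565, 474 and 482 CPM with vesicles, and it fell by 0.41 ± 0.11 on the log2 scale (adjusted p = 0.030, edgeR). The groups did not overlap, and the call held in 3 of the 6 fits that leave out a library. Rps3, which also has a DNA repair activity, was not called, at 931, 979 and 955 CPM with PBS and 1112, 1108 and 1063 CPM with vesicles (0.20 ± 0.09, adjusted p = 0.17, edgeR). Its groups did not overlap although the test was not passed.

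Among the large subunit genes, Rpl10, which joins late in assembly beside the peptidyl transferase centre, had 670, 676 and 748 CPM with PBS. With vesicles it was at 1131, 1235 and 936 CPM, above each PBS library, and it rose by 0.66 ± 0.12 (adjusted p = 0.0057, edgeR). Rpl36a had 171, 245 and 262 CPM with PBS and 332, 375 and 348 CPM with vesicles, and it rose by 0.64 ± 0.15 (adjusted p = 0.020, edgeR). In both genes the groups did not overlap. Other large subunit genes called higher were Rpl23, Rpl24, Rpl26, Rpl27, Rpl35a and the stalk gene Rplp0. Outside the stalk these rose by 0.33 to 0.66.

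The stalk of the large subunit, which recruits the translation factors that hydrolyse GTP, was uneven. Rplp0, its base, had 586, 549 and 553 CPM with PBS and 855, 1247 and 713 CPM with vesicles, so that vesicle library 2 was far above the other two. The rise of 0.74 ± 0.19 (adjusted p = 0.032, edgeR) was called in 2 of the 6 fits that leave out a library. Vesicle library 2 was also the one with the largest share of lens counts, at 7.21%, and vesicle library 3, the lowest for Rplp0, had the smallest, at 0.0121%. The part of the lens counts in this difference was not tested. The tip proteins were not called. Rplp1 had 1219, 1170 and 1115 CPM with PBS and 1253, 1187 and 1110 CPM with vesicles, a difference of 0.02 ± 0.10. Rplp2 had 59.5, 65.4 and 96.5 CPM with PBS and 102, 132 and 85.4 CPM with vesicles (0.53 ± 0.23, adjusted p = 0.17, edgeR), and its groups overlapped.

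The lowest change of all members was that of Rpl23a, whose protein lies at the exit of the tunnel through which new chains leave. It had 439, 419 and 336 CPM with PBS and 246, 175 and 179 CPM with vesicles. Every vesicle library was below every PBS library, and Rpl23a fell by 0.99 ± 0.16 on the log2 scale, a ratio of 0.50 (adjusted p = 0.0034, edgeR). Rpl28 had 345, 360 and 257 CPM with PBS and 228, 204 and 172 CPM with vesicles, and it fell by 0.67 ± 0.15 (adjusted p = 0.015, edgeR). Its call held in 3 of the 6 fits that leave out a library, against 6 of 6 for Rpl23a. In GENCODE M21, 59.7% of the exon bases of Rpl23a are shared with Tlcd1, which had 51 to 80 counts in the retina libraries against 2771 to 6889 for Rpl23a. Rpl5 and Rpl11, which together with 5S rRNA bind the p53 regulator Mdm2, were not called, with changes of 0.31 ± 0.10 (adjusted p = 0.076, edgeR) and 0.10 ± 0.10. Rpl13a, which can also silence translation of inflammatory mRNAs outside the ribosome, was not called either (0.29 ± 0.09, adjusted p = 0.064, edgeR).

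**Figure D2:**
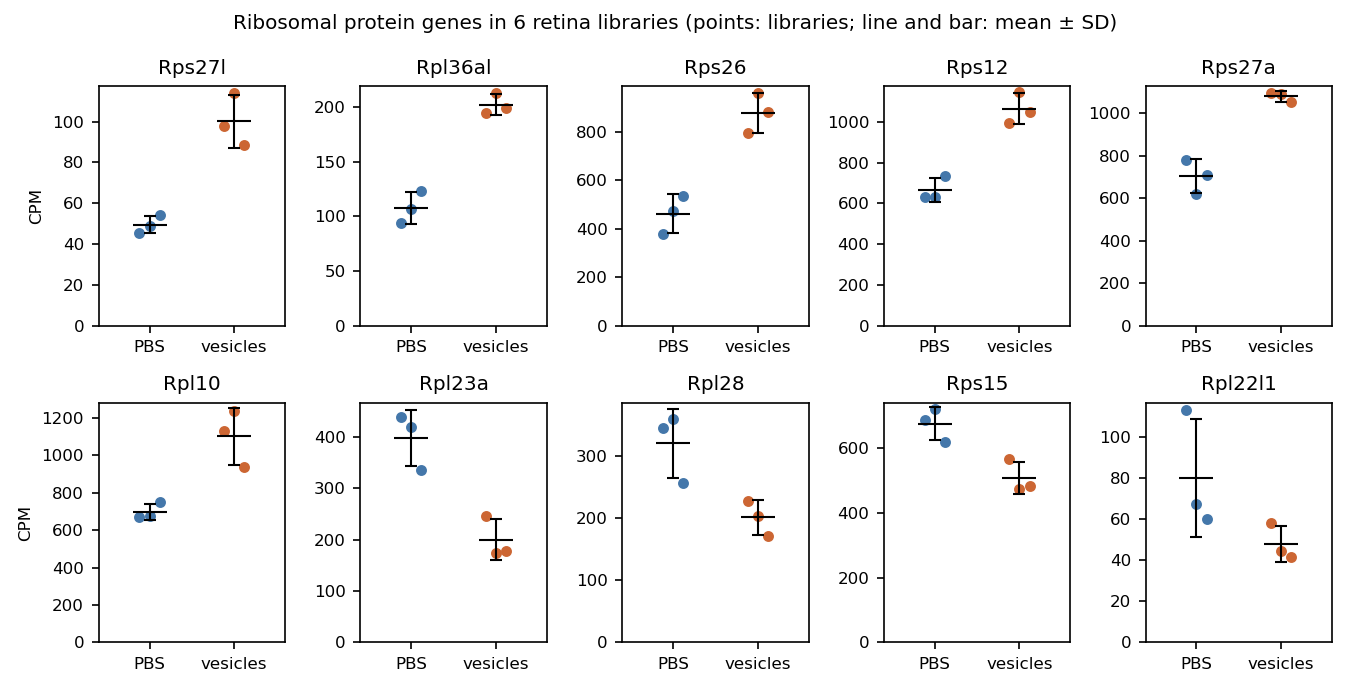
CPM (y axis, from 0, linear) of 10 ribosomal protein genes in the 6 retina libraries, PBS in blue and vesicles in orange, with the mean and SD of 3 libraries. The first 6 genes are higher in every vesicle library and the last 4 lower, and Rpl22l1, the last, was not called.

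The paralogs included the member with the largest rise. Rps27l, a paralog of Rps27 and a target of p53, had 45.6, 49.1 and 54.1 CPM with PBS and 97.7, 114 and 88.6 CPM with vesicles. It rose by 1.01 ± 0.12, or 2.02-fold (adjusted p = 0.0006, edgeR), the smallest adjusted p of all members. Rps27 itself was at 443, 551 and 620 CPM with PBS and 698, 643 and 597 CPM with vesicles, with overlapping groups (0.26 ± 0.13, adjusted p = 0.21, edgeR). Rpl36al, a paralog of Rpl36a, had 93.7, 107 and 123 CPM with PBS and 194, 213 and 199 CPM with vesicles. It rose by 0.90 ± 0.11 (adjusted p = 0.0009, edgeR), beside the rise of 0.64 in Rpl36a. Rpl22l1 had 113, 67.2 and 60.1 CPM with PBS and 58.0, 44.4 and 41.4 CPM with vesicles. Its groups did not overlap, PBS library 1 stood well above the others, and the difference of -0.74 ± 0.27 was not called (adjusted p = 0.12, edgeR). Without PBS library 1 the difference was -0.41, not called by edgeR, and DESeq2 called it lower with all libraries (adjusted p = 0.0069). Its paralog Rpl22 went from 382, 347 and 358 CPM to 431, 445 and 411 CPM (0.24 ± 0.09, adjusted p = 0.097, edgeR). The difference between paralogs of a pair was not tested.

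Of the other such names, Rps27rt, a second gene like Rps27, was at 2.74 to 4.01 CPM. Rpl7l1, a large subunit assembly factor that resembles Rpl7, and Rps19bp1, which binds the Rps19 protein, are not ribosome components and were not called (0.30 ± 0.10 and 0.39 ± 0.12). Rpl7 was not called at 0.32 ± 0.10, nor was Rps19 at -0.05 ± 0.13. Rpl3l of striated muscle and the testis paralogs Rpl10l and Rpl39l were at 0 to 4, 0 and 0 to 11 counts in the retina. In the pericyte table they were at 0 to 5, 0 to 2 and 0 to 1 counts, and Rps23rg1 was at 0 to 1. The genes they resemble, Rpl3 and Rpl39, were at 0.15 ± 0.10 and 0.40 ± 0.13 in the retina without a call. Ribosomal proteins whose names fall outside the rule include Fau and Rack1. Fau, a small subunit protein made as a fusion with a ubiquitin-like protein, rose in the retina by 0.36 ± 0.10 (adjusted p = 0.035, edgeR), and Rack1, a scaffold on the small subunit, was not called (0.16 ± 0.09).

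Retina PBS library 1 stood apart in the shortest ribosomal protein mRNAs. In the 9 members with a coding sequence under 300 nt and a mean of at least 50 CPM, its median log2 ratio to the other PBS libraries was -0.60, against 0.02 for the 72 longer members. In 117 other genes with coding sequences as short, the median was -0.03, and in 3597 other genes with longer ones it was 0.11. The cut of 300 nt was not sharp. Rpl35a (-0.62), Rpl36a (-0.57), Rps23 (-0.52) and Rps26 (-0.41), with longer coding sequences, were also low in that library. Of all 73 tested members of 300 nt or longer, 35 were below 0. Rps29 stood at 163 CPM in PBS library 1 and at 362 and 389 CPM in the others. Rpl37 stood at 166 CPM there and at 322 and 398 CPM in the others. Rps28 and Rpl38 showed the same order, at 74.9 against 156 and 156 CPM and at 123 against 236 and 221 CPM. Vesicle libraries were at 342 to 376 CPM for Rps29 and at 481 to 503 CPM for Rpl37. Without PBS library 1 the difference of Rpl37 went from 0.74 to 0.45, that of Rpl38 from 0.60 to 0.36, and those of Rps29 and Rps28 from 0.24 to -0.06 and from -0.09 to -0.37. With all libraries edgeR called none of these 4, while DESeq2 called Rpl37 (adjusted p = 0.0066) and Rpl38 (adjusted p = 0.013). Without PBS library 1, edgeR called Rpl37 and Rpl38 as well. Rps21, also short, was called with and without it (0.60 and 0.43). So were Rpl35a (0.66 and 0.48), Rpl36a (0.64 and 0.47), Rps23 (0.49 and 0.34) and Rps26 (0.92 and 0.80).

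**Figure D3:**
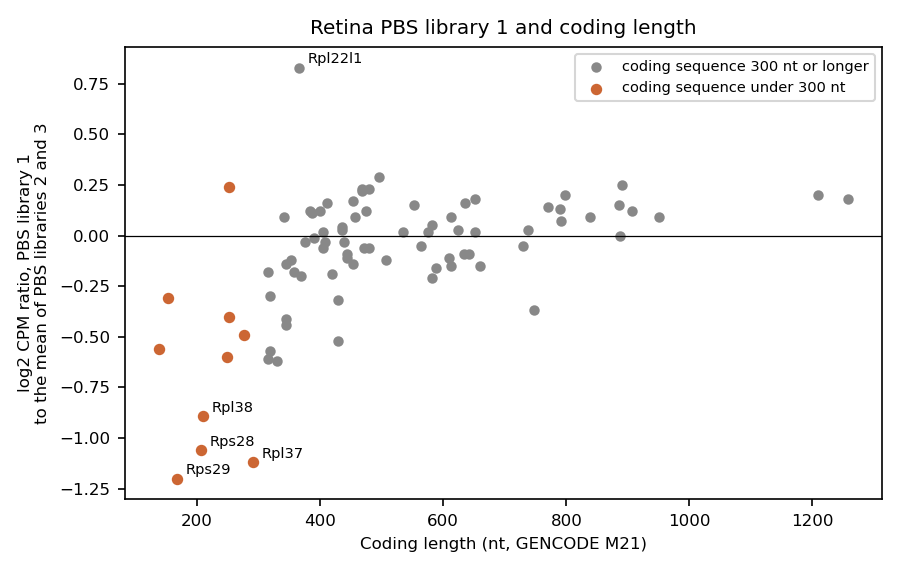
Log2 ratio of CPM in retina PBS library 1 to the mean of PBS libraries 2 and 3 (y axis) against coding length in nt (x axis), 1 point per tested ribosomal protein gene. Orange points, with coding sequences under 300 nt, lie below 0 except for the weakly expressed Rps27rt, and Rps29 is lowest at -1.20.

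In pericytes, no ribosomal protein gene was called in either direction. Of 83 members tested, 0 were called at an adjusted p under 0.05 by edgeR, where 10.9% of all 16975 genes were called higher and 8.9% lower, 19.8% in all, and DESeq2 called 0 as well. At an unadjusted p under 0.05 there were 2 members, Rps21 and Rps19bp1, against 29.7% of all genes. The median change was 0.07 and 76 of 83 members were above 0 (50.1% of all genes), but 81 of 83 lay within 0.20 of 0. Without vesicle library 1 the median was -0.02 and 29 members were above 0, and Rpl7 was then called lower at -0.13 (adjusted p = 0.049, edgeR). That library had the highest share of ribosomal protein counts in its table.

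Rps27l and Rps26, which had the largest rises in the retina, were nearly level in pericytes. Rps27l had 140, 152 and 144 CPM with PBS and 161, 148 and 142 CPM with vesicles (0.05 ± 0.06). Rps26 had 238, 241 and 251 CPM with PBS and 285, 231 and 221 CPM with vesicles (0.01 ± 0.07). For both genes the vesicle groups overlapped the PBS groups, and vesicle library 1 was the highest. Rpl36al was at 0.33 ± 0.44 there, on 19 to 39 counts a library. Rpl23a was at 132, 122 and 121 CPM with PBS and at 166, 112 and 130 CPM with vesicles (0.12 ± 0.13). Rps21, the member with the smallest adjusted p in pericytes, had 184, 177 and 160 CPM with PBS and 229, 180 and 181 CPM with vesicles (0.18 ± 0.08, adjusted p = 0.13, edgeR). Without a filter on low counts Rps21 was called, at 0.17 (adjusted p = 0.041, edgeR). Rps19bp1 and Rplp2 were the 2 members whose pericyte groups did not overlap, vesicles higher, where 17.4% of all genes had that pattern. No member had all vesicle libraries below all PBS libraries, a pattern of 16.4% of all genes.

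Some members were barely counted in the pericyte table. Rpl24 had 18 to 53 counts, Rpl36al 19 to 39, Rps10 77 to 109 and Rpl13a 379 to 492. In the retina libraries, with fewer counts in all, they had 8687 to 12214, 1435 to 3377, 5394 to 7078 and 21035 to 28932. The pericyte table lists other gene models over the same exons (Gm28037, Gm49383, Gm49804 and Gm45713), with 0 counts in every library, and the retina table does not list them. They cover 47.0%, 24.5%, 20.6% and 29.4% of the exon bases of Rpl24, Rpl36al, Rps10 and Rpl13a in GENCODE M21. Rpl26, with no such overlap, also had fewer counts in pericytes, 2138 to 2748 against 13558 to 19256 in the retina. The part of the overlap in the low counts was not tested. The largest pericyte differences, 0.62 ± 0.43 for Rpl24 and 0.33 ± 0.44 for Rpl36al, rest on these few counts and were not called.

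**Figure D4:**
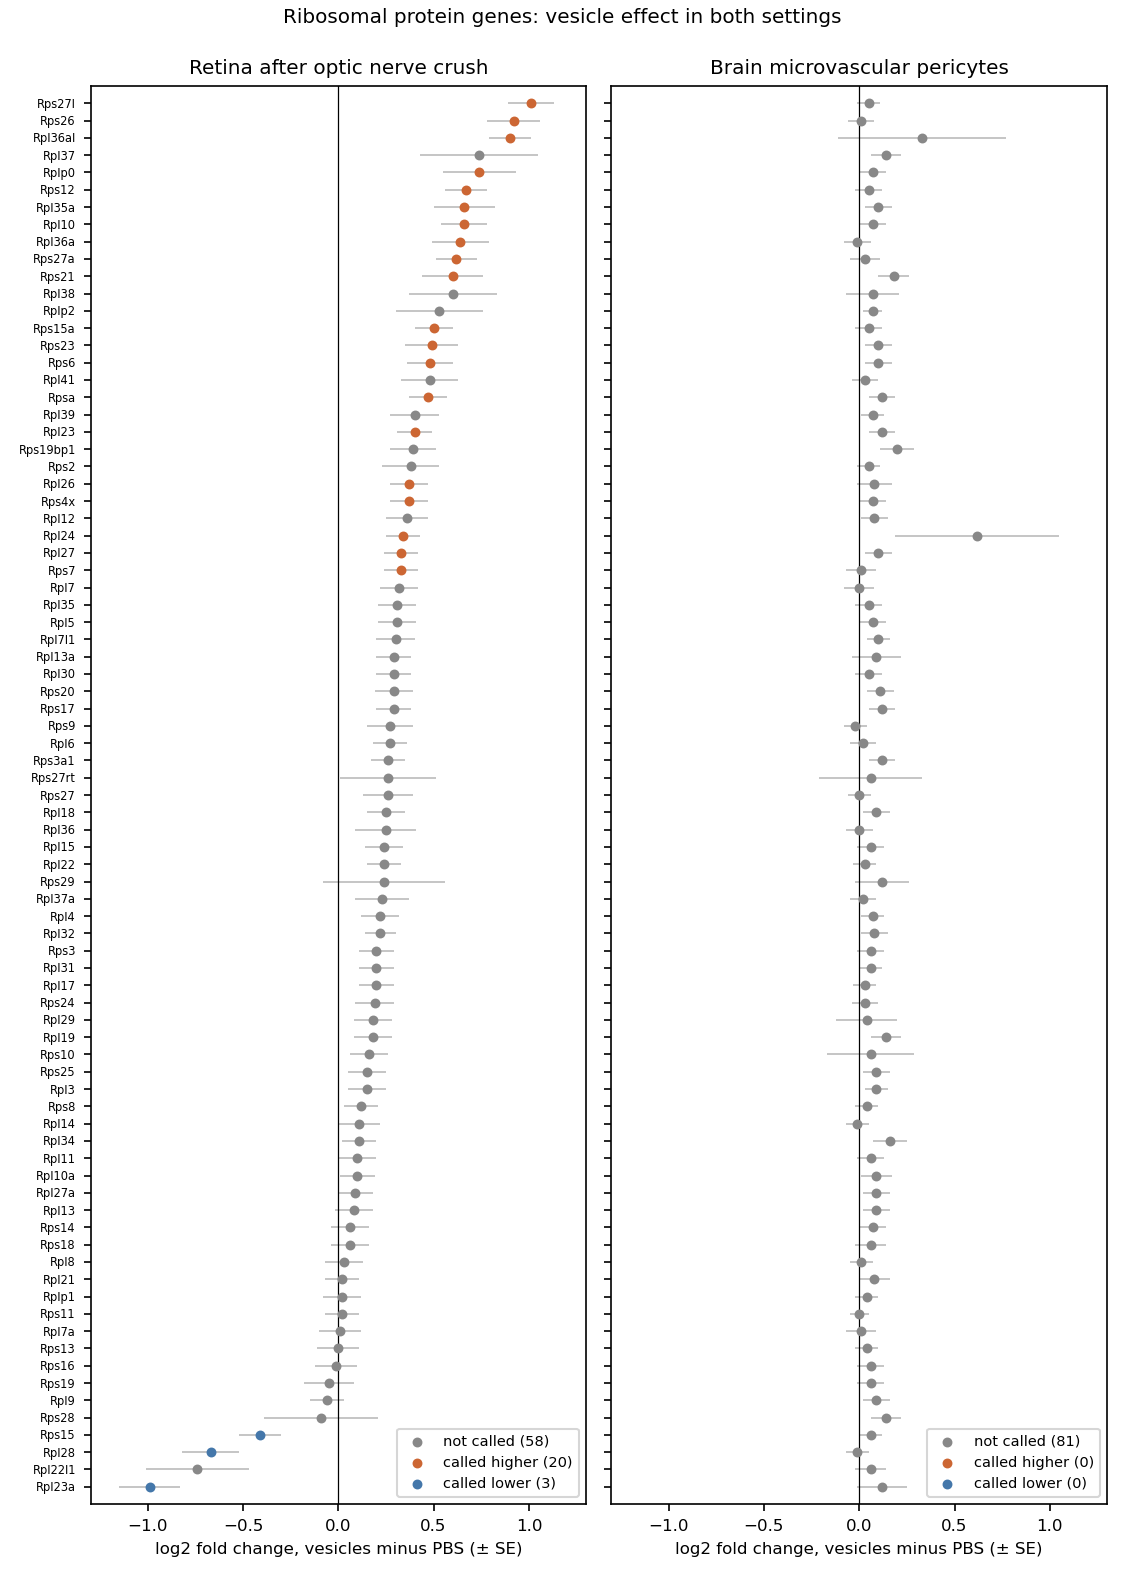
Log2 fold change, vesicles minus PBS, ± SE (x axis), of 81 of the 83 ribosomal protein genes tested in both tables, sorted by the retina value, for the retina (left) and pericytes (right). In the retina 20 of these are called higher and 3 lower between -0.99 and 1.01, while the pericyte points cluster at a median of 0.07 with none called and wide errors for Rpl24 and Rpl36al.

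The vesicle effects in the retina and in pericytes were compared in 1 limma fit of all 12 libraries over 13712 genes, of which 7.52% differed upwards and 4.57% downwards. Of 83 members 8 had a higher effect in the retina and 3 a lower one, both near these shares of all genes. The largest differences of log2 fold change, retina minus pericytes, were 0.96 ± 0.13 for Rps27l (adjusted p = 0.00014, limma) and 0.93 ± 0.16 for Rps26 (adjusted p = 0.0014, limma). Rpl23a differed by -1.10 ± 0.23 in the opposite direction (adjusted p = 0.0092, limma). Rpl36al, with few counts in pericytes, did not pass at 0.56 ± 0.38 (adjusted p = 0.40, limma). Without pericyte vesicle library 1 the number of members that differed was 25 (22 upwards, 3 downwards), against 7.55% and 4.6% of all genes. Without retina PBS library 3 it was 18 (14 upwards, 4 downwards), against 7.01% and 4.48% of all genes. Tissue, time and the gene lists of the tables differ together between the experiments and cannot be told apart.

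Sharing of sequence limits some of these values. Of the 50-nt stretches of a member's mRNA, a median of 55.4% over the 87 members also occurred in a transcript of another GENCODE M21 gene, and the share ranged from 0% (Rps19bp1, Rpl3l and Rpl39l among others) to 98.65% (Rps27). It was 92.13% for Rpl10, 85.40% for Rps12 and 82.58% for Rpl23a, and 37.82% for Rps26 and 13.69% for Rps27l. Reads from such stretches can be left uncounted or split between copies, and the treatment of multiply mapped reads is not stated in the labels. The medians were 63.3% for members called higher in the retina, 50.5% for those called lower and 55.5% for those not called. Annotated -ps pseudogenes of ribosomal proteins, 319 of them among the pericyte genes, took 0.0767% to 0.0888% of counts there, and 0 of 93 tested were called by edgeR, with 0 at an unadjusted p under 0.05.

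Other genes of the translation machinery were counted in the same fits, and differences of these lists between the retina and pericytes were not tested. In the fits that leave out 1 library, 6.65% to 12.7% of all genes were called higher and 1.75% to 5.67% lower in the retina. In pericytes such fits called 7.9% to 11% of all genes higher and 5.67% to 8.95% lower. Of 33 translation factors and other genes with terminal oligopyrimidine mRNAs, 4 (12.1%) were called higher and 0 lower in the retina, with a median of 0.18, near the 10.7% of all genes called higher there. The count was 1 to 6 when 1 library was left out, with 1 without PBS library 2 and 2 without vesicle library 2. The 4 called were Eif3i, a subunit of initiation factor 3, Tpt1, the poly(A)-binding protein gene Pabpc1, and Fau. Tpt1 went from 834, 868 and 1057 CPM to 1334, 1551 and 1291 CPM, a rise of 0.60 ± 0.12 (adjusted p = 0.010, edgeR). Pabpc1 rose by 0.49 ± 0.11 (adjusted p = 0.015, edgeR) and Eif3i by 0.42 ± 0.08 (adjusted p = 0.0084, edgeR). In pericytes 0 of the 33 were called by edgeR and 1 by DESeq2, with 8 at an unadjusted p under 0.05 and a median of 0.06.

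Ribosome assembly and rRNA synthesis genes, which make and process the ribosomal RNA and fit the proteins to it, had the most calls of these lists in pericytes. There 33 of 83 (39.8%) were called higher and 0 lower, against 10.9% and 8.9% of all genes, with a median of 0.20. Myc, a transcription factor that drives ribosome production, had 20.3, 20.9 and 21.7 CPM with PBS and 33.5, 31.2 and 37.2 CPM with vesicles, and it rose by 0.70 ± 0.09 (adjusted p = 3.6e-06, edgeR). All 3 vesicle libraries were above all PBS libraries. Wdr36 and Tsr1 of small subunit assembly rose by 0.55 ± 0.07 and 0.47 ± 0.09, and Eif6, which keeps the large subunit from joining early, rose by 0.43 ± 0.07. The number called was 17 to 36 when 1 library was left out. It was 17 without PBS library 2 or 3, 18 without PBS library 1 and 23 without vesicle library 1. Of all genes, 7.9% to 9.15% were called higher in the fits without a PBS library, and 11% without vesicle library 1. In the retina 8 of 83 (9.64%) were called higher and 0 lower, near the 10.7% of all genes called higher, with a median of 0.21. Rrp1b rose there by 0.91 ± 0.15, Nop58 by 0.57 ± 0.11, Ddx21 by 0.55 ± 0.13 and Bop1 by 0.41 ± 0.11. This count was 2 without PBS library 2, vesicle library 1 or vesicle library 2, where 6.65% to 6.92% of all genes were called higher. It was 5 without PBS library 3 (9.41% of all genes) and 13 without PBS library 1 (9.37%).

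**Figure D5:**
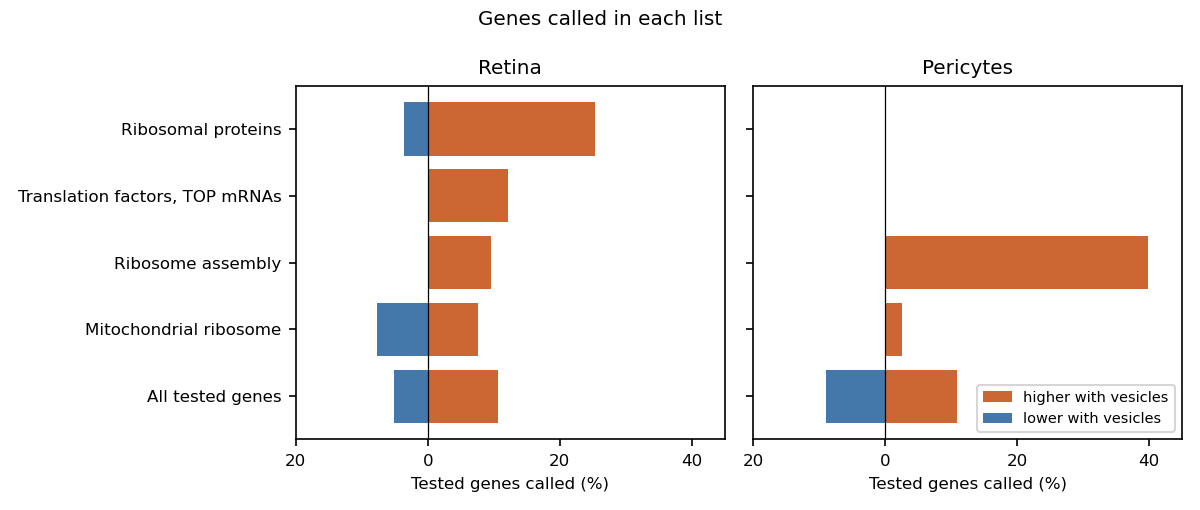
Percent of tested genes called higher (orange, to the right of 0) or lower (blue, to the left) with vesicles, in the retina (left panel) and pericytes (right panel), for ribosomal proteins, 3 related lists and all tested genes. In the retina 25.3% of ribosomal protein genes were called higher, and in pericytes 0%, where 39.8% of ribosome assembly genes were.

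Mitochondrial ribosomal proteins, which serve the separate ribosome of mitochondria, showed no common direction in the retina. Of 78 tested, 6 (7.69%) were called higher and 6 lower, against 10.7% and 5.19% of all genes, with a median of 0.05. Mrps25 went from 30.3, 30.5 and 28.0 CPM to 137, 124 and 90.4 CPM, a rise of 1.98 ± 0.15 (adjusted p = 0.0001, edgeR), larger than that of any cytosolic member. Mrps6 rose by 0.72 ± 0.15, and Mrpl14 and Mrpl4 fell by 0.44 ± 0.11 and 0.40 ± 0.10. The counts were 1 to 7 higher and 0 to 5 lower when 1 library was left out, with 1 higher without PBS library 2 and 0 lower without PBS library 2, vesicle library 1 or vesicle library 2. In pericytes Mrpl38 (0.32 ± 0.07) and Mrps6 (0.22 ± 0.07) were called higher of 77 tested and 0 lower, below the 10.9% of all genes called higher, and the count was 1 to 3 when 1 library was left out.

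Of 22 genes of the S6 kinases and the mTOR pathway tested in the retina, 2 (9.09%) were called higher and 0 lower, near the 10.7% of all genes called higher. That number was 1 in each of the 4 fits that leave out PBS library 2, PBS library 3, vesicle library 1 or vesicle library 2. Eif4ebp1, a repressor of cap-dependent translation that mTOR switches off, went from 2.81, 2.98 and 2.46 CPM to 9.62, 15.6 and 8.83 CPM, a rise of 2.04 ± 0.27 (adjusted p = 0.0012, edgeR). The other was the kinase gene Rps6ka3 at 0.39 ± 0.09. In pericytes 4 of 21 (19%) were called higher and 1 lower, against 10.9% and 8.9% of all genes. Rps6ka4 rose by 0.45 ± 0.07, Eif4ebp1 by 0.36 ± 0.11 and Larp1, the binding protein of oligopyrimidine tracts, by 0.24 ± 0.07, and Rps6ka5 fell by 0.33 ± 0.11. The number higher was 1 to 3 when 1 pericyte library was left out, with 1 without PBS library 2.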

How the data were processed

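The values deposited by the authors are raw counts by gene, in separate tables for retina and pericyte libraries. Per the submitters' processing notes, FastQC 0.11.8, HISAT2 2.0.5, featureCounts 1.5.0-p3 and limma were used. Trizol RNA and a NEBNext Ultra kit were used, per the labels. Genome build, strandedness and the treatment of multiply mapped reads are not given in the sources used here. The series' design text describes knockdowns that match none of the 12 samples. Pericyte columns were matched to samples by their descriptions, and retina columns to groups by inference from short names.

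The retina and pericyte counts were fitted separately with edgeR 4.0.16 in R 4.3.3 (filterByExpr with a minimum count of 10, TMM, robust quasi-likelihood F test, 4 residual degrees of freedom), and p-values were adjusted by Benjamini-Hochberg over all tested genes. The SE was taken as the absolute log2 fold change over the root of F. The retina and pericyte effects were compared with limma 3.58.1 (voom, TMM within each table). The libraries of each table shared a quality weight, so no single library was weighted down. DESeq2 1.42.0 was an alternative. Retina libraries had a biological coefficient of variation of 0.203, and pericyte libraries 0.0818. An exact 2-sided permutation test of 3 against 3 libraries cannot go below p = 0.1. The fits were tested on simulated counts with 200 genes changed 2-fold. They recovered 67% in the retina (15440 genes), 84.5% in pericytes (16975 genes) and 51.5% for the difference (13510 genes). False calls numbered 5, 6 and 6. Changes were planted only in genes above a minimum mean count, and the simulated libraries had no shifts such as those in lens counts. Smaller changes, such as the retina member median of 1.20-fold, were not simulated. Within a group, chi-squared per degree of freedom between libraries was at least 10.5 in the retina and 5.87 in pericytes, so no 2 libraries were copies.

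Exon overlap and shared stretches came from GENCODE M21 (GRCm38), which may not be the authors' annotation, and starts from RefSeq. Members and lists were chosen with earlier results of these data known. Named with values are the called members with the smallest adjusted p, those with the largest changes, paralogs and the genes they resemble, members with known further roles, and up to 4 called genes of each related list by p. Rps15a, Rpl35a, Rps21, Rpl37, Rpl38, Rps28, Rps29, Rps10, Mrpl4 and genes listed to complete a count were named after their values were seen. Values of 3 further genes are not reported here, and they stay in the counts.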

Additional observations from a re-analysis of the deposited data

Results flagged for a closer look

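For 11 ribosomal protein genes, 10 of which are given here, the vesicle effect in the retina differed from that in pericytes in the joint limma fit of all 12 libraries. Values are log2 fold change in the retina minus that in pericytes. Higher in the retina were Rps27l by 0.96, Rps26 by 0.93, Rpl36a by 0.67, Rps12 by 0.63, Rps27a by 0.60, Rpl10 by 0.58 and Rps15a by 0.46. Lower in the retina were Rpl23a at -1.10, Rpl28 at -0.65 and Rps15 at -0.47. Each of the 10 was called in the separate retina fit in the same direction, but that fit uses the same retina libraries. No member at all was called in pericytes. Of all 13712 genes compared, 12.1% differed, and the 11 of 83 members were near that share.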

How the results depend on the processing

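Members called higher in the retina numbered 21 (range 8 to 24 when 1 library was left out, 36 with DESeq2). Members called lower numbered 3 (range 1 to 3, 4 with DESeq2). Leaving out 1 library, 6.65% to 12.7% of all genes were called higher and 1.75% to 5.67% lower. With DESeq2 these shares were 11.8% and 5.78%. When each group lost its library with the most lens mRNA, 15 members were called higher (6.81% of all genes) and 1 lower (2.33%). In pericytes 0 members were called higher (1 without the low-count filter) and 0 lower (range 0 to 1). Members whose effect differed between the experiments numbered 11 (range 8 to 25 over 12 fits). In those fits 4.45% to 10.9% of all genes differed upwards and 2.66% to 5.15% downwards. With protein-coding genes tested in both tables as denominator, the share of counts was 5.61% and 6.55% in the retina groups (PBS, vesicles) and 3.18% in pericytes with PBS. Scaling by RLE or by TMM without the members gave 20 and 21 higher in the retina and 3 lower in both. No called value changed direction. The cause of these shifts was not tested, beyond the smaller number of libraries in fits that leave one out. For 32 genes followed by name in each table, each gene under each alternative gave 31 lost calls, 15 gained calls and 306 with neither in the retina, and 0, 1 and 351 in pericytes. Pericyte libraries of the same number did not deviate together (r = 0.008, 0.04 and -0.022). A fit with that number as a block called 0 members higher and 0 lower in pericytes and found 10 members that differed between the experiments. No paired analysis was possible within the retina because its numbers are only column numbers. How depth limits these calls was not tested. The median SE of a retina member was 0.102, and the smallest member change called there was 0.33.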
